A study of Penicillium oxalicum with 6 samples.

Results

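Penicillium oxalicum is a filamentous fungus that grows on plant biomass. In 6 places along its gene IDs, between 5 and 9 genes with consecutive numbers were all at least 2-fold lower in one group of libraries than in the other. These 40 genes, of 9834 in the deposited tables, are described here. They form the windows POX01170 to POX01176 (7 genes), POX03409 to POX03414 (6), POX07388 to POX07392 (5), POX08681 to POX08685 (5), POX09467 to POX09475 (9) and POX09684 to POX09691 (8). The members were chosen on the difference between the groups, so that difference is given below as a description and is not tested again. The windows differed widely in level: the genes of POX01170 to POX01176 were among the most abundant of the series and about 2-fold lower, while the summed levels of the other windows were 10.1-fold to 22.8-fold lower.

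The study gave 3 mycelium libraries whose labels name liquid medium with 1% Avicel, a microcrystalline cellulose, and 3 whose labels name 1% wheat bran, a mixed plant material that contains starch and hemicellulose besides cellulose. Every label gives the strain MuKu70, described as a Ku70 mutant, and 4 hours. Ku70 takes part in non-homologous end joining, and fungal strains without it are widely used as parents for gene deletion. The series title instead speaks of a POX07277 deletion moved from glucose to Avicel and of 24 hours, so the groups are called Avicel-labelled and wheat-bran-labelled throughout, and each direction below holds between these labels. Expected counts of POX07277 were 427, 375 and 331 in Avicel-labelled replicates F, S and T and 0 in each wheat-bran-labelled library, although no sample label mentions a mutant of this gene. Whether strain or medium separates the groups cannot be told apart. The labels give both groups the same time, which is not the time in the title. No source says that libraries of a group are separate cultures, and the spread given below may be technical.

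In filamentous fungi, genes that serve one pathway often lie side by side in the genome and are transcribed together. Clusters that make secondary metabolites are the best known case, and clusters for the uptake and breakdown of a nutrient also occur. The files give no product, position or sequence for any ID, and 0 of the 9834 IDs matched the RefSeq table of this species. A neighbour here is therefore a neighbour in number, and what the members do is not known from these data.

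All 40 members had enough counts to be tested, and all 40 were called at least 2-fold lower in the Avicel-labelled libraries, which is what chose them. Over all 8636 tested genes the same call was made for 9.41% (edgeR quasi-likelihood test, adjusted p under 0.05). At 4-fold or more it held for 30 members and 4.17% of tested genes, and at 16-fold or more for 24 members and 1.48%. For each of the 40 members, every Avicel-labelled library lay below every wheat-bran-labelled one, as for 32.3% of tested genes. The median log2 fold change of the members, Avicel-labelled over wheat-bran-labelled, was -4.28, against 0.01 over all tested genes. Outside the POX01170 window it was -4.40 for the remaining 33 members. Log2 fold changes spanned -8.61 to -1.04, and no tested gene of the series had a larger decrease than POX09690, the lowest of them.

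**Figure D1:**
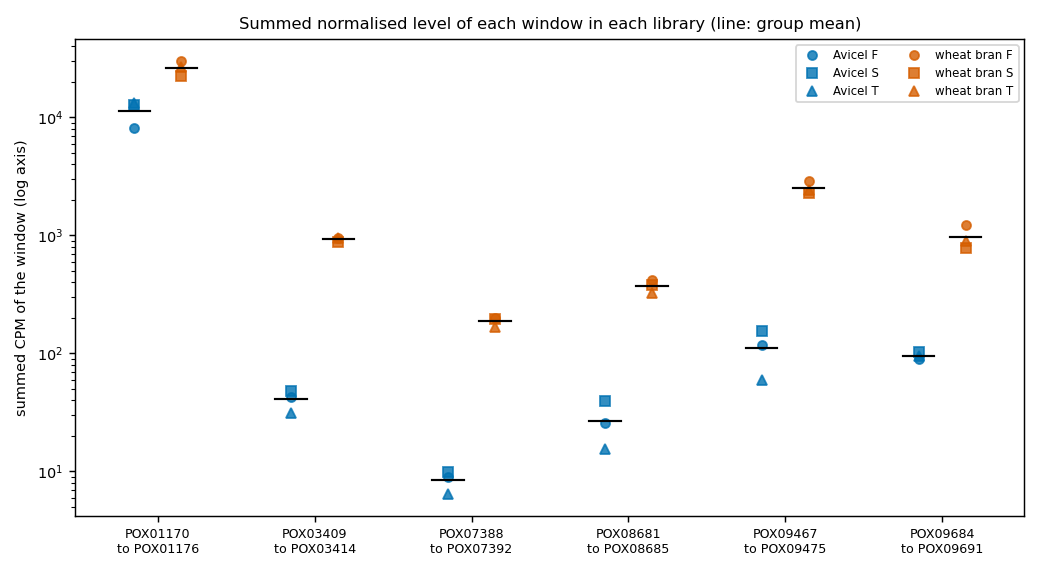
Summed level of each window in each library, in CPM (TMM-scaled) on a log axis, with blue symbols for Avicel-labelled and orange symbols for wheat-bran-labelled libraries, the symbol shape for the replicate letter and a line at each group mean. The groups are apart in every window, by 2.33-fold for POX01170 to POX01176 and by 10.1-fold to 22.8-fold for the others.

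Summed levels are given in CPM, counts scaled to library size with TMM factors. The 7 genes of the POX01170 window summed to 11313 ± 2748 in the Avicel-labelled and 26314 ± 3874 in the wheat-bran-labelled libraries (SD, n = 3 each). They held 1.13% and 2.64% of all counts. The POX09467 window stood next, at 111 ± 48.6 and 2534 ± 301 CPM, a 22.8-fold difference. The POX09684 window gave 95.8 ± 7.14 and 963 ± 225 CPM, or 10.1-fold, and the POX03409 window 40.7 ± 8.54 and 928 ± 34.9 CPM, or 22.8-fold (SD, n = 3 each). At the low end, the POX08681 window gave 26.9 ± 12.1 and 375 ± 46.2 CPM, or 13.9-fold, and the POX07388 window 8.42 ± 1.8 and 187 ± 17.8 CPM, or 22.3-fold (SD, n = 3 each). Differences of 22.3-fold to 22.8-fold thus came at sums from 187 to 2534 CPM in the wheat-bran-labelled libraries. A sum follows its most abundant genes, and the medians of single genes gave another order. The median log2 fold change of the members was -5.37 in the POX09684 window and -5.33 in the POX07388 window. It was -4.57 for POX09467, -4.29 for POX08681, -2.24 for POX03409 and -1.12 for POX01170. In none of the windows did the summed levels of the groups overlap.

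Levels of single genes are given in FPKM, which takes gene length into account. Across the 33 members outside the POX01170 window, the median FPKM was 53.9 in the wheat-bran-labelled libraries, above the 28.6 of all tested genes. It was 2.17 in the Avicel-labelled libraries, where all tested genes had a median of 28.1. Of all 40 members, 27 were above the median of the tested genes in the wheat-bran-labelled libraries and 11 in the Avicel-labelled ones, and 7 of those 11 were the POX01170 window. In the Avicel-labelled libraries 11 members had a mean FPKM under 1, the highest of them POX08681 at 0.977 FPKM, the 2.5th percentile of tested genes. In the wheat-bran-labelled ones none did, the lowest being POX09475 at 1.75 FPKM, the 3.7th percentile. The choice of members largely fixes this contrast. Genes near 0 in the Avicel-labelled libraries could pass the count filter only through the wheat-bran-labelled ones. Across the 33 members the order of levels was partly shared between the groups (Spearman rho 0.75 between mean FPKM values, a description across genes measured in the same 6 libraries).

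**Figure D2:**
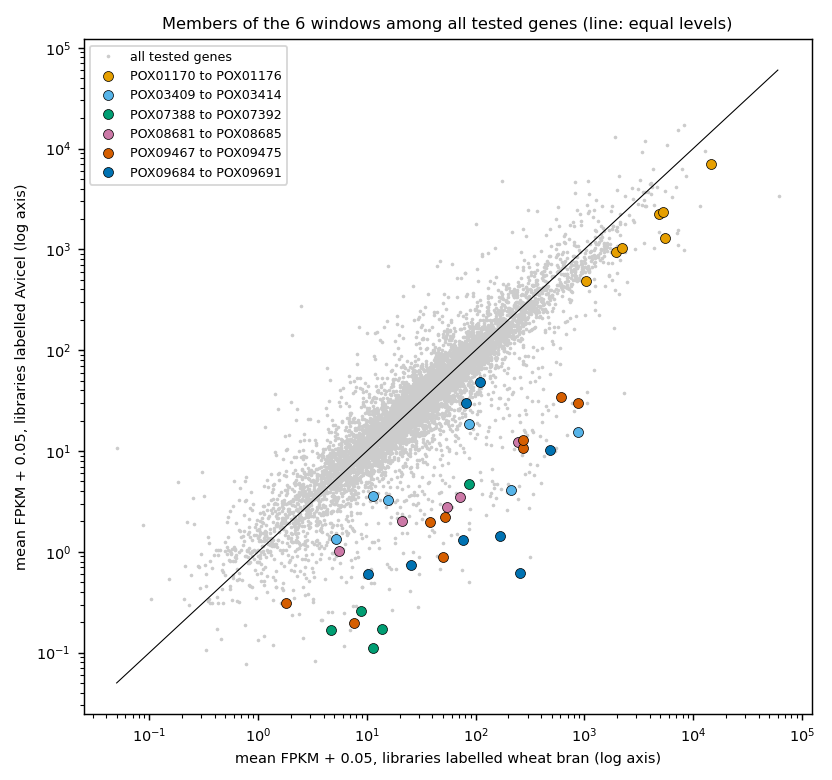
Mean FPKM + 0.05 of every tested gene (grey) and of the members, coloured by window, in the wheat-bran-labelled (x axis) and Avicel-labelled (y axis) libraries, both on log axes, with a line of equal levels. Members of POX01170 to POX01176 lie close under the line at the upper right, and most others lie further below it, the 33 spanning 1.75 to 878 FPKM on the x axis without the offset.

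The 7 genes of POX01170 to POX01176 were very abundant, and all but POX01175 differed by a similar amount. The most abundant was POX01176, at 5105, 7789.8 and 8308 FPKM in Avicel-labelled replicates F, S and T and 17281, 12288 and 13898 FPKM in the wheat-bran-labelled ones. Replicate F was the lowest Avicel-labelled library and the highest wheat-bran-labelled one. POX01176 also showed the smallest difference of the window, with a log2 fold change of -1.04 (SE 0.22), or 2.05-fold lower. The largest was that of POX01175, whose FPKM was 1022, 1250.5 and 1581 against 5699.9, 5601 and 5040.3, a log2 fold change of -2.09 (SE 0.18) or 4.25-fold. The other 5 genes lay between -1.20 and -1.06, so POX01175 stood apart from 6 genes whose log2 fold changes differed by less than their standard errors of 0.20 to 0.24. POX01175 also had the tightest wheat-bran-labelled libraries of the window, with a coefficient of variation (CV, the SD as a share of the mean) of 5.03%, where the others had 17% to 23.1%. The order of levels was nearly the same in both groups (Spearman rho 0.89 across 7 genes).

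For 6 of these 7 genes the 2-fold call rested on single libraries. Without Avicel-labelled replicate F, 6 of the 7 (all but POX01175) had log2 fold changes of -0.99 to -0.85 and so fell short of 2-fold. Without wheat-bran-labelled replicate F, 4 of the 7 fell short, at -0.97 to -0.90, and 3 did so, at -0.94 to -0.86, when each library's trend with gene length was removed. Avicel-labelled replicate F was the lowest library of its group for 7 of 7 members and also for 8 of the 10 numbers within 5 of the window, against 36.2% of all tested genes. The window sum there was 8151 CPM, and 12656 and 13132 CPM in replicates S and T.

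Genes of similar level lay on both sides of this window. The 2 numbers below it and the 5 above it ranged from the 96.5th to the 99.9th percentile of FPKM in the Avicel-labelled libraries. Just outside, POX01169 had a log2 fold change of -0.46 (SE 0.22) and POX01177 of -0.48 (SE 0.27), and neither passed the threshold. One number further, POX01168 at -1.61 and POX01178 at -1.03 were both called at 2-fold or more. Higher up, POX01179, POX01180 and POX01181 had -0.31, -0.95 and -0.16. Of these 7 neighbours, 3 were called lower, and the 2-fold line falls between close values. Below them, POX01166 was higher, at 11591, 7991.6 and 7864.8 FPKM in Avicel-labelled and 3684, 3553 and 2952 FPKM in wheat-bran-labelled replicates F, S and T (log2 fold change 1.43, SE 0.20).

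**Figure D3:**
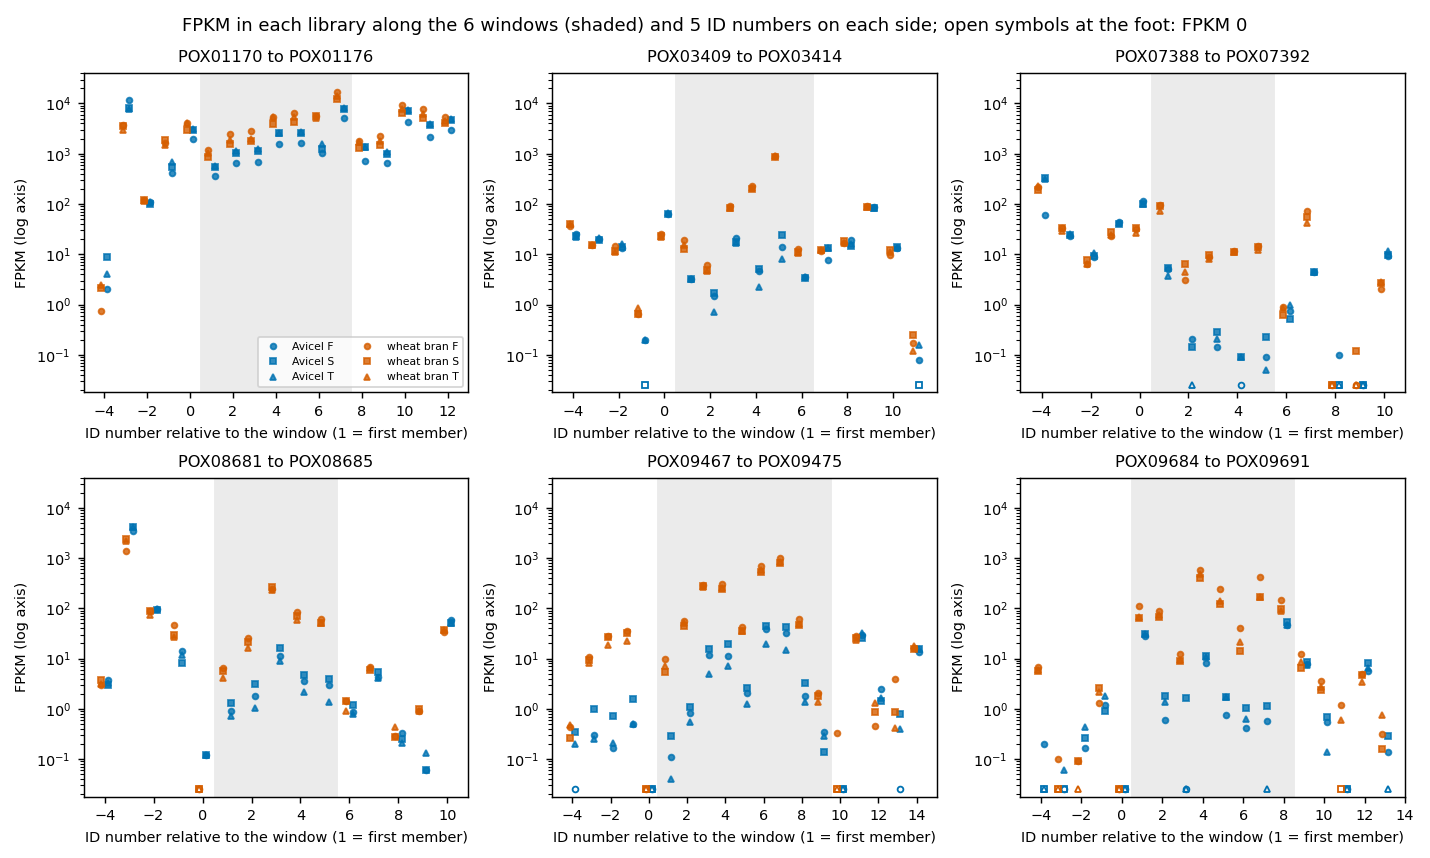
FPKM of each gene in each library on a log axis along the 6 windows (shaded) and 5 ID numbers on each side, with blue for Avicel-labelled and orange for wheat-bran-labelled libraries, the shape for the replicate letter and open symbols at the foot for an FPKM of 0. Inside the shading the colours separate for every gene, and the abundant genes on both sides of POX01170 to POX01176 continue its level.

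POX03409 to POX03414 combined 2 genes with a very large difference and 4 with a moderate one. POX03413 was the highest, at 895, 852 and 888 FPKM in the wheat-bran-labelled replicates F, S and T and 13.7, 23.9 and 7.97 FPKM in the Avicel-labelled ones. Its log2 fold change was -5.85 (SE 0.38), or 57.6-fold, also the largest of the window. Its neighbour POX03412 was 51.9-fold lower, at 212 ± 16.5 against 4.06 ± 1.57 FPKM (SD, n = 3 each). On both sides of this pair the differences were 3.25-fold to 4.83-fold. The smallest was that of POX03414, at 12.7, 11 and 10.5 FPKM against 3.56, 3.39 and 3.53 FPKM, a log2 fold change of -1.70 (SE 0.15). POX03413 held 72.7% of the window's summed FPKM in the wheat-bran-labelled libraries. In the Avicel-labelled ones POX03411 was the highest, at 18.6 FPKM, with 40.5% of the sum.

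Within the Avicel-labelled group, the genes of this window also varied to different extents. POX03413 and POX03412 had a CV of 54% and 39.5% over the 3 libraries, each lowest in replicate T. POX03409 and POX03414 had a CV of 1.74% and 2.25%, and POX03411 of 12.5%. Summed over the Avicel-labelled libraries, POX03409, POX03414 and POX03412 had 183, 102 and 87 counts, and the part of counting error in these spreads was not tested. POX03410, the weakest gene at 1.3 FPKM and 44 counts over the 3 libraries, had a CV of 40.3%. The numbers next to the window were not lower: POX03408, directly below, was 1.43 higher on the log2 scale (SE 0.09), at 61.9 to 65.4 FPKM against 22.3 to 24.8 FPKM. POX03415, directly above, stood at -0.07 (SE 0.19) on that scale. None of the 8 tested neighbours within 5 numbers was called 2-fold lower.

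POX07388 to POX07392 held 4 genes that were close to unread in the Avicel-labelled libraries, beside 1 that was not. POX07388 was the most abundant, at 94.9, 89.5 and 74 FPKM in the wheat-bran-labelled and 4.98, 5.36 and 3.67 FPKM in the Avicel-labelled replicates F, S and T. Its log2 fold change of -4.20 (SE 0.16) was the smallest of the window. It held 69.1% of the summed FPKM in the first group and 90.2% in the second. The other 4 genes had 4.65 to 13.7 FPKM in the wheat-bran-labelled libraries and 0.06 to 0.21 FPKM in the Avicel-labelled ones.

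Counting error is large for these 4 genes. POX07391 had 11.7, 11.2 and 11.3 FPKM in the wheat-bran-labelled libraries, the most even of all 40 members there with a CV of 2.17%. It had 2 counts in all Avicel-labelled libraries and 345 in the others, a ratio of summed levels of 185 with an exact 95% counting interval of 50.9 to 1534. The intervals were 16.5 to 122 for POX07389 (5 counts), 21.8 to 92.3 for POX07390 (9 counts) and 56.9 to 262 for POX07392 (8 counts), and they cover counting error only. The fitted log2 fold change of POX07389 moved from -5.19 to -5.85 without Avicel-labelled replicate F, and that of POX07392 from -6.75 to -7.53 without Avicel-labelled replicate S.

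At the lower edge of this window the direction turned. POX07387, directly below, was higher in the Avicel-labelled libraries, at 116.5, 102 and 101 FPKM against 31.5, 34 and 26.4 FPKM (log2 fold change 1.80, SE 0.11), next to -4.20 for POX07388. POX07393, directly above, was below 1 FPKM in every library, and its fitted log2 difference was -0.06 (SE 0.34). Beyond it, POX07394 was lower again, at 4.42 to 4.51 against 42.8 to 72.7 FPKM (log2 fold change -3.65, SE 0.26).

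POX08681 to POX08685 showed a step from its first genes to the rest. POX08683, POX08684 and POX08685 had log2 fold changes of -4.34, -4.38 and -4.29 (SE 0.19 to 0.27), or 19.6-fold to 20.8-fold, values that differed by less than their standard errors. POX08682 stood at -3.40 (SE 0.36) and POX08681 at -2.47 (SE 0.26), the smallest. The most abundant gene, POX08683, had 241, 268 and 227 FPKM in the wheat-bran-labelled replicates F, S and T and 11.4, 16 and 8.86 FPKM in the Avicel-labelled ones. The largest difference was that of POX08684, with 85.4, 71.8 and 59.3 FPKM against 3.57, 4.61 and 2.14 FPKM. POX08681 had 6.54, 5.58 and 4.2 FPKM against 0.91, 1.31 and 0.71 FPKM. The 5 genes had the same order of level in both groups (Spearman rho 1.00 across 5 genes), and all 5 were highest in replicate S and lowest in replicate T among the Avicel-labelled libraries. POX08682 is the longest of the 40 members, with an effective length of 7658 bases implied by its counts and FPKM, where the median was 947 bases for the members and 1252 for tested genes.

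Directly below, POX08680 had too few counts to be tested, and past it POX08679 was lower (log2 fold change -1.58, SE 0.28), with counts that were not whole. Directly above, POX08686 did not pass the threshold (log2 fold change -0.41, SE 0.22).

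POX09467 to POX09475 is the longest of the 6 windows, with 9 genes. Apart from POX09475, the last, all were at least 16-fold lower, and 6 of them (POX09469 to POX09474) lay between -4.86 and -4.14 on the log2 scale. POX09473 was the most abundant, at 994, 799.7 and 817 FPKM in the wheat-bran-labelled and 32.6, 42.3 and 14.8 FPKM in the Avicel-labelled replicates F, S and T. POX09472 followed with 605 ± 90.8 against 34.1 ± 13 FPKM (SD, n = 3 each) and was the highest of the window in the Avicel-labelled group. The largest difference was that of POX09468, at 55.1, 44.2 and 51.7 against 0.83, 1.11 and 0.56 FPKM, a log2 fold change of -5.90 (SE 0.20) or 59.8-fold. The smallest was that of POX09475, at 2.11, 1.77 and 1.36 against 0.35, 0.14 and 0.29 FPKM, with -2.69 (SE 0.37) and 11 counts in all Avicel-labelled libraries. The order of levels was shared between the groups (Spearman rho 0.93 across 9 genes). POX09467 has an implied length of 7393 bases, the second longest of the members, and its log2 fold change moved from -5.66 to -6.63 without Avicel-labelled replicate S.

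Lower levels continued below the first member. POX09466, the next number down, had 0 counts in every library, so it could not be called. The 3 numbers below it were lower in the Avicel-labelled libraries by amounts like those of the members: POX09465, POX09464 and POX09463 had log2 fold changes of -5.14, -6.08 and -4.18 (SE 0.35 to 0.37). POX09464 stood at 28.7, 27.1 and 18.7 FPKM in the wheat-bran-labelled and 0.17, 0.71 and 0.21 FPKM in the Avicel-labelled replicates F, S and T. On the other side, POX09476 had too few counts to be tested and POX09477 was not past the threshold (log2 fold change 0.16, SE 0.10).

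Log2 fold changes varied most between genes in POX09684 to POX09691. Its outer genes, POX09684 and POX09691, had the smallest log2 fold changes, at -1.44 (SE 0.21) and -1.17 (SE 0.18), and the 6 genes between them ranged from -8.61 to -4.15. The outer genes were also the ones that stayed well expressed in the Avicel-labelled libraries. POX09691 had 47.5, 52.9 and 46.1 FPKM there and 146, 96.6 and 88.2 FPKM in the wheat-bran-labelled replicates F, S and T, and it fell short of 2-fold without wheat-bran-labelled replicate F, at -0.93. POX09684 had 30.1 ± 1.55 against 81.5 ± 27.6 FPKM (SD, n = 3 each). Of the 6 windows, the order of levels agreed least between the groups here (Spearman rho 0.40 across 8 genes). However, 5 of the 8 had a mean of only 0.55 to 1.39 FPKM in the Avicel-labelled libraries, on 3 to 50 summed counts. The part of counting error in their order was not tested.

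Among the inner genes, POX09687 was the most abundant in the wheat-bran-labelled libraries, at 585, 394 and 472 FPKM against 8.35, 11 and 11 FPKM. Its log2 fold change was -5.58 (SE 0.20), or 47.8-fold. The largest difference of all members was that of POX09690, at 421, 170.2 and 169 FPKM against 0.57, 1.15 and 0 FPKM. It had 3 counts in all Avicel-labelled libraries, a ratio of summed levels of 439 with an exact 95% counting interval of 149.9 to 2133. Its fitted log2 fold change of -8.61 (SE 0.73) moved to -9.45 without Avicel-labelled replicate S. Next within this window came POX09688, at 244, 122 and 137 against 0.75, 1.7 and 1.72 FPKM (log2 fold change -6.89, SE 0.41). POX09686 rests on few counts, as its 10 Avicel-labelled counts all came from replicate S. Without that library its fitted log2 fold change moved from -4.15 to -8.89. Avicel-labelled replicates F and T had 0 counts, so -8.89 comes from the fit and is not a measured fold. POX09686 is also the single member whose expected counts were not whole, which can arise where reads are divided between similar genes.

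Replicate F was the highest wheat-bran-labelled library for all 8 genes of this window. POX09689, for example, stood at 40.6, 14.4 and 21.8 FPKM in wheat-bran-labelled replicates F, S and T, and POX09685 at 88.2, 67.1 and 74.9 FPKM. The implied lengths of POX09690, POX09689 and POX09688, whose wheat-bran-labelled libraries had the widest spread of the members (CV 56.2%, 51.9% and 38.9%), are short, at 121, 337 and 368 bases. Other short members spread less in these libraries. POX01172, at 367 bases, had a CV of 23.1%, and POX09686, at 421 bases, one of 19%. The numbers next to the window were not called: POX09683 had 0 counts in every library, and POX09692 had a log2 fold change of -0.22 (SE 0.26).

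**Figure D4:**
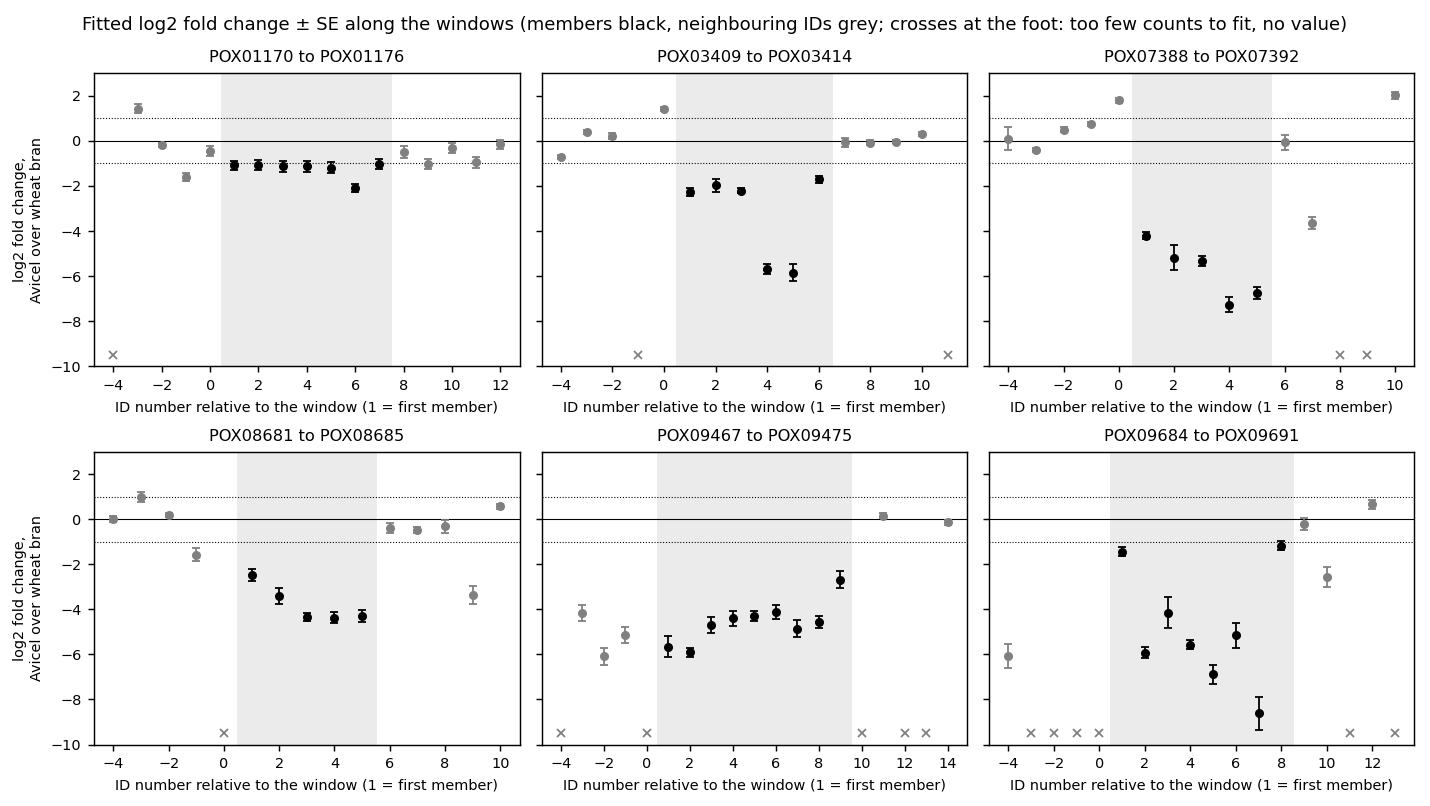
Fitted log2 fold change, Avicel-labelled over wheat-bran-labelled, with its SE, along each window (members black on shading) and 5 ID numbers on each side (grey), with dotted lines at 2-fold in each direction and crosses at the foot for genes with too few counts. POX09684 to POX09691 holds deep inner genes between shallow outer ones. In POX03409 to POX03414 only POX03412 and POX03413 are deep, and the 3 grey points left of POX09467 lie as low as its members.

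Of the 12 numbers directly next to the windows, 8 had enough counts to be tested. Of these, 2 were called at least 2-fold higher (POX03408 and POX07387), 6 did not pass the threshold, and none was 2-fold lower, as must be where a window ends at the first gene that is not. The other 4 had too few counts. Among all 60 numbers within 5 of a window, 43 were tested, 10 were 2-fold lower, 4 were 2-fold higher and 18 did not pass the threshold. A further 4 were lower and 7 higher by less than 2-fold. Over all 8636 tested genes, 813 (9.41%) were 2-fold lower and 607 were 2-fold higher. The 10 lower ones included the 3 below POX09466, and POX09679 at -6.06 (SE 0.53) and POX09693 at -2.57 (SE 0.43) on either side of the POX09684 window. The median log2 fold change of the 43 was -0.16.

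The levels of the windows also varied between libraries of a group. The choice of members used the values of every library, so this spread and the library orders below are not independent of it. Among the Avicel-labelled libraries, replicate T was the lowest in the POX03409, POX07388, POX08681 and POX09467 windows, at 77%, 76.3%, 57.7% and 53.5% of the group mean of summed CPM. Replicate S was the highest in the same 4 windows, at 118%, 118%, 147% and 140.2%. These 4 windows were grouped after their order was seen, and their sums are made of the genes counted next. Replicate T was the lowest library for 21 of their 25 genes and S the highest for 20. Over all 40 members T was the lowest for 23 and S the highest for 29. Over all tested genes the shares were 33% and 27.8%. The POX01170 window had another order, with replicate F lowest at 72.1% and T highest at 116%. The POX09684 window varied little in sum, from 93.1% to 108%, although replicate S was the highest for 8 of its 8 genes. In the longer window POX05850 to POX05871, shown for comparison, replicate T was the lowest for 22 of 22 genes and S the highest for 20, with sums of 61.9% and 132% of the group mean.

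Among the wheat-bran-labelled libraries, replicate F gave the highest sum in all 6 windows, from 103% of the group mean in the POX03409 window to 126% in the POX09684 window, and was the highest library for 35 of 40 members. Over all tested genes it was the highest for 37.6%. Spread was wider for the members than for other genes in both groups: the median CV was 38% for members and 9.8% for tested genes in the Avicel-labelled libraries, and 15.5% and 7.92% in the wheat-bran-labelled ones. In the Avicel-labelled libraries 23 of the 40 members had a mean FPKM under 5, and the part of low counts in this spread was not tested.

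**Figure D5:**
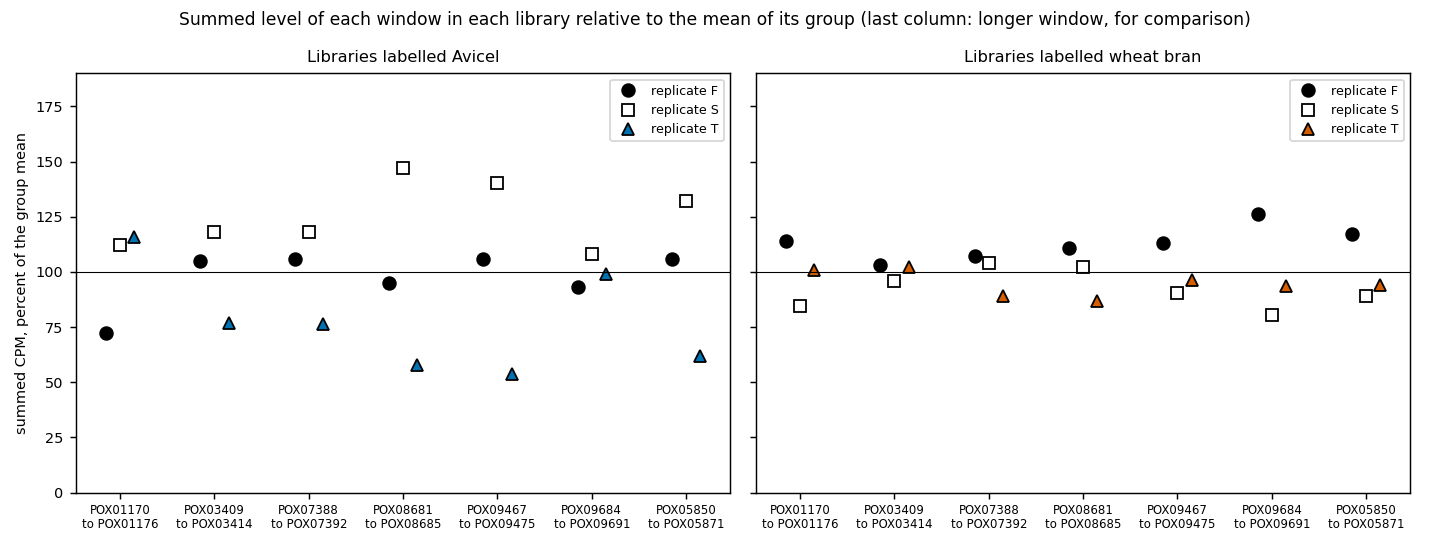
Summed CPM of each window in each library as a percent of its group mean, for Avicel-labelled (left) and wheat-bran-labelled (right) libraries, with circles, squares and triangles for replicates F, S and T and a line at 100%. On the left, T is lowest and S highest in 4 of the 6 windows and in the longer window POX05850 to POX05871, and on the right F is highest in all.

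For comparison with that longer window, its 22 genes had a median log2 fold change of -4.91 and an SD of 1.32 between genes. The SD between genes was 0.37 in the POX01170 window, 0.84 and 0.93 in the POX08681 and POX09467 windows, 1.25 in the POX07388 window, and 1.94 and 2.56 in the POX03409 and POX09684 windows. A single gene held between 40% and 72.7% of the summed FPKM of each short window in the wheat-bran-labelled libraries, against 10.8% in the longer one, and a window of 5 to 9 genes gives its top gene a larger share than one of 22 by size alone. These figures describe windows that were all chosen on the same difference and were not tested against each other.

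As to the series as a whole, libraries held 13176152 to 14598919 expected counts. Libraries of a group correlated at r = 0.9827 to 0.9953 over log2(CPM + 1) of the tested genes and those of different groups at 0.8819 to 0.9089, and 88.5% of the variance lay on the first principal component. A count of 0 allows up to 3 counts, or 0.205 to 0.228 CPM depending on the library.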

How the data were processed

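RNA of 6 mycelium libraries was compared, 3 per label group. DESeq2, RSEM 1.2.12, Bowtie2 2.1.0 and BWA 0.7.10-r789 appear, without their roles, in the submitters' processing notes. Build, annotation and strandedness were not given in the sources available, so reads of overlapping or antisense genes may be mixed. The authors deposited, per the file headers, an expected count (an estimated read number, not normalized, whole in 99.2% of values) and an FPKM (scaled to gene length and library) for 9834 genes. One deposited table also holds TPM, which was not used. Effective length was computed from count and FPKM for genes with an FPKM of at least 2.

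Rounded expected counts of all genes entered edgeR 4.0.16 (R 4.3.3; filterByExpr filter, TMM scaling, quasi-likelihood F-test, Benjamini-Hochberg, threshold 0.05 and 2-fold); 8636 genes passed the filter. SE was derived from the F statistic. The test was checked on simulated data. CPM is scaled by TMM, and ± gives the SD of 3 libraries. Counting intervals are exact binomial at 95%. No adjusted p of a member is printed, because the windows were chosen on that comparison. Members, windows and comparison lists were chosen with earlier results of these data known. In each window the member with the highest wheat-bran-labelled FPKM and those with the largest and smallest change are given by library; other genes named were chosen after their values were seen. Alternatives were other scalings, filters, pseudocounts (limma 3.58.1), DESeq2 1.42.0, a length correction, the letter as a block, and each library left out.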

Additional observations from a re-analysis of the deposited data

How the results depend on the processing

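The members were chosen on the difference in these same 6 libraries, which largely fixes their direction and call under other settings, so their counts below are a description and no sign of stability. The number of members at least 2-fold lower was 40 with other scalings, other filters, DESeq2, an adjusted p under 0.01 and pseudocounts of 0.1 and 1 on FPKM, 37 with the gene length trend removed, 35 with a pseudocount of 5, and, dropping single libraries, 34 to 40, lowest without Avicel-labelled replicate F. Over all genes the count was 813, and 540 with a pseudocount of 5, which by construction shrinks folds of weak genes; the other alternatives gave 704 to 897. Of 66 alternative values for summed levels of windows, 65 stayed within 1 SD between libraries. That SD comes from the same 6 libraries, so leaving 1 of them out could hardly exceed it. The 65 are therefore no sign of stability either. The log2 ratio of POX08681 to POX08685, for example, went from -3.80 to -4.19 without Avicel-labelled replicate S, within its SD of 0.70. That of POX09684 to POX09691 was -3.33 on CPM and -3.69 on summed FPKM, a sum that by construction gives short genes more weight. A replicate block on the letters gave 821 genes and 40 members. The letters were not taken as pairs: correlations of deviations from group means were 0.19 (F), -0.1 (S) and 0.23 (T) within a letter and -0.3 to 0.2 across letters. The median log2 fold change of all tested genes stayed between -0.01 and 0.03 in every setting. Depth limits the 7 members with 10 or fewer counts in all Avicel-labelled libraries.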

Other observations

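Very long genes occur in several windows. Of 8443 tested genes with an implied length, 44 (0.521%) were longer than 7000 bases, a limit set after the data were seen. POX08682 and POX09467 are 2 of them, and the longer window POX05850 to POX05871 holds another, POX05851, at 7737 bases. The other 4 short windows hold none. Of the 44, 7 were called at least 2-fold lower and 4 at least 2-fold higher, where over all 8636 tested genes 813 (9.41%) and 607 were. Whether length goes with the difference was not tested. The 7 include POX08682, POX09467 and POX05851, which lie in windows chosen for being lower. POX05851 stood at 23.3, 18.6 and 20.4 FPKM in the wheat-bran-labelled and 4.16, 4.5 and 3.66 FPKM in the Avicel-labelled replicates F, S and T. The files give no product for these IDs, and nothing about their function was tested.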
